A study of Mus musculus with 12 samples.

Results

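Genes of the endothelium, the cell layer that lines blood and lymphatic vessels, were followed in iWAT, the inguinal fat pad. The 34 genes were taken by symbol from a table of 23420 genes, and all 34 were present and passed the filter on low counts. They comprise 18 capillary and pan-endothelial, 6 arterial, 5 venous and 5 lymphatic genes. The 12 libraries came from male C57BL/6 mice, all 10 weeks old, and each of the 4 groups held 3 animals. Floxed HIF2α alleles (HIF2a loxP/loxP) were present in every mouse. WT animals lacked Cre, and HIF2α AKO animals had Adipoq-Cre in addition, so that Cre and the deletion were always present together. Adipoq-Cre acts in adipocytes, and endothelial cells were not its target. Mice of each genotype were kept for 1 week at thermoneutrality (TN, 30 °C) or for 3 days in cold (4 to 6 °C). The comparisons ask whether the vessel genes differed between cold and TN and between mice with and without adipocyte HIF2α.

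Blood vessel endothelium is held together by junction proteins and keeps its identity through ETS and SOX transcription factors. Arteries are marked by Notch ligands and receptors and by ephrin-B2, and veins by the ephrin receptor EphB4 and by the nuclear receptor encoded by Nr2f2, which opposes the arterial programme. Lymphatic vessels drain fluid, lipid and immune cells, and they depend on the transcription factor Prox1 and on the VEGF-C receptor encoded by Flt4. Adipose tissue is densely supplied with capillaries, and cold is known to raise blood flow through thermogenic fat. Several of these genes are not exclusive to vessels. Lyve1 is also made by tissue macrophages, Pdpn by fibroblastic stromal cells, Nr2f2 by mesenchymal progenitors, and Vwf and Selp by platelets and their precursors. In bulk tissue, fewer cells of a type and less RNA per cell cannot be told apart.

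Eng rose in cold in both genotypes, by about 1.5-fold, and was the only one of the 34 genes that passed an adjusted p of 0.05 in WT. Eng (chromosome 2, 32646595 to 32682669 in GRCm38, forward strand) encodes endoglin, a co-receptor for ligands of the TGF-β family on endothelial cells. Within HIF2α AKO, Emcn and Sox7 also rose and Pdpn fell. Emcn (chromosome 3, 137341067 to 137432185, forward strand) encodes endomucin, a sialomucin of capillary and venous endothelium. Sox7 (chromosome 14, 63943673 to 63950732, forward strand) encodes an endothelial transcription factor. Pdpn (chromosome 4, 143267431 to 143299564, reverse strand) encodes podoplanin, a surface glycoprotein of lymphatic endothelium. The 250 bases upstream of the start sites of Eng, Emcn and Pdpn are shown because these genes carried the calls, and because hypoxia-inducible and ETS factors are known to bind such cores at endothelial genes. The sequences come from RefSeq (GRCm38.p6), 5′ to 3′ on the strand of the gene, at chr2:32646345-32646594 for Eng, chr3:137340828-137341077 for Emcn and chr4:143299565-143299814 for Pdpn. Capitals mark the hypoxia response core (ACGTG or GCGTG) and the ETS core (AGGAAG or CGGAAG), each searched on both strands.
Eng: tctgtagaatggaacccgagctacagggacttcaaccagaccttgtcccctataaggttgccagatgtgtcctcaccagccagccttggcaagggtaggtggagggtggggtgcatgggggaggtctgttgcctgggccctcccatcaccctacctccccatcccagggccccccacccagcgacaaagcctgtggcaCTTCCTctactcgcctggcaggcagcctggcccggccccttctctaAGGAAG
Emcn: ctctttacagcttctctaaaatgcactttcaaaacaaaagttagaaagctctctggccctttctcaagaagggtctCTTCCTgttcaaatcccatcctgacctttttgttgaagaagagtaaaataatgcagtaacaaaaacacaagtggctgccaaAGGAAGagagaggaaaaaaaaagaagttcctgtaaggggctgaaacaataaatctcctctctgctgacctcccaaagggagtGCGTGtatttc
Pdpn: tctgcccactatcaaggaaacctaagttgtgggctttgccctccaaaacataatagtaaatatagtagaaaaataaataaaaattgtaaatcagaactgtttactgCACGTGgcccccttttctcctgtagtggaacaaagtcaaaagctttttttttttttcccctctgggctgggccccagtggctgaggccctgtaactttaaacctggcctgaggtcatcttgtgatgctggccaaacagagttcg

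The Eng window held 0 hypoxia response cores and 2 ETS cores, and the Emcn window held 1 and 2. The Pdpn window held 2 matches of the hypoxia response core, which overlap as a palindrome read on both strands, and 0 ETS cores. Promoters were matched for 21 of the 34 genes, with 26 start sites among them. The hypoxia response core was present in 23.08% of these 26 windows and in 38.6% of all 32851 RefSeq windows of the same length. The ETS core was present in 50% of the 26 windows and in 39.21% of all windows. These shares describe letters, and binding of the factors was not measured.

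Levels are given as CPM, counts brought to a common library size with TMM scaling, and changes as log2 fold changes with their standard error (SE) from edgeR. Libraries held between 22368316 and 35204631 counts on genes, and the lowest count of a member in any library was 31. Ucp1, the uncoupling protein of thermogenic adipocytes, lay between 0.204 and 3.85 CPM in the TN libraries and between 2171 and 5897 CPM in the cold libraries. Epas1, which encodes HIF2α, was 360 ± 76.8 CPM in TN WT and 348 ± 53.8 CPM in TN HIF2α AKO, and 627 ± 100.6 CPM in cold WT and 826 ± 139 CPM in cold HIF2α AKO (SD, n = 3 mice each). The gene level therefore did not show the deletion, the floxed exons were not counted apart from the rest, and genotypes are given as labelled. The paper reports, from a separate mRNA measurement, lower Hif2a (Epas1) in iWAT of its HIF2α AKO mice. Some libraries stood apart from their group. TN WT replicate 3 held 204 CPM of 7 epithelial markers, which summed to between 3.05 and 10.7 CPM in the other 11 libraries. Cold HIF2α AKO replicate 1 and TN HIF2α AKO replicate 2 held 1315 and 1596 CPM of 12 skeletal muscle markers, which lay between 13.4 and 95.5 CPM in the other 10 libraries. Results of the members that turn on these libraries are given with and without them.

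Per kilobase of exon, the level of the members in CPM spanned 140.5-fold, averaged over the 12 libraries. Plvap, the protein of the diaphragms of fenestrated capillaries, was highest at 94.1 CPM per kb. It was followed by Cdh5, the VE-cadherin of endothelial junctions, at 60.7, Eng at 59.3, the adhesion molecule Pecam1 at 48.0 and the tight junction protein Cldn5 at 41.3 CPM per kb. The ranges of Cdh5 (43.9 to 73.0 CPM per kb over libraries) and Eng (42.3 to 77.2 CPM per kb) overlapped, so their order is within the spread. At the low end stood Gja5, an arterial connexin, at 1.08 CPM per kb, and Sele, the leukocyte adhesion molecule of activated venules, at 1.06 CPM per kb. Prox1, the lymphatic master regulator, was lowest at 0.67 CPM per kb. The most abundant lymphatic gene was Lyve1, a hyaluronan receptor, at 25.2 CPM per kb. Nr2f2 was the most even member, between 31.3 and 35.9 CPM in all 12 libraries, a 1.15-fold range. Prox1 and Mmrn1, a glycoprotein of platelets and lymphatic endothelium, varied most, by 5.19-fold and 4.76-fold between the highest and the lowest library.

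In WT mice, 1 of the 34 members was higher in cold and 0 were lower. Over all 15306 tested genes, 21.3% were called, 15.6% higher and 5.68% lower. The median log2 fold change of the members was 0.08 and that of all genes -0.03. In HIF2α AKO mice, 3 members were higher and 1 was lower in cold. In that comparison 27.0% of all genes were called, 15.6% higher and 11.5% lower, and the medians were 0.11 for the members and -0.05 for all genes. The shares of members called, 1 and 4 of 34, were thus below those of all genes. No overlap between the 3 cold and the 3 TN libraries was seen for 5 members in WT, 2 higher and 3 lower, and for 14 in HIF2α AKO, 12 higher and 2 lower. Among all genes the groups did not overlap in 42.0% and 50.5%. The upper-quartile normalization shifted the median of all genes by -0.14 (WT) and -0.09 (HIF2α AKO), and the members' median with it to -0.06 in WT and 0.02 in HIF2α AKO. Scaling to other endothelial genes gave -0.09 and -0.10, so the sign of these small medians depended on the scale.

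**Figure D1:**
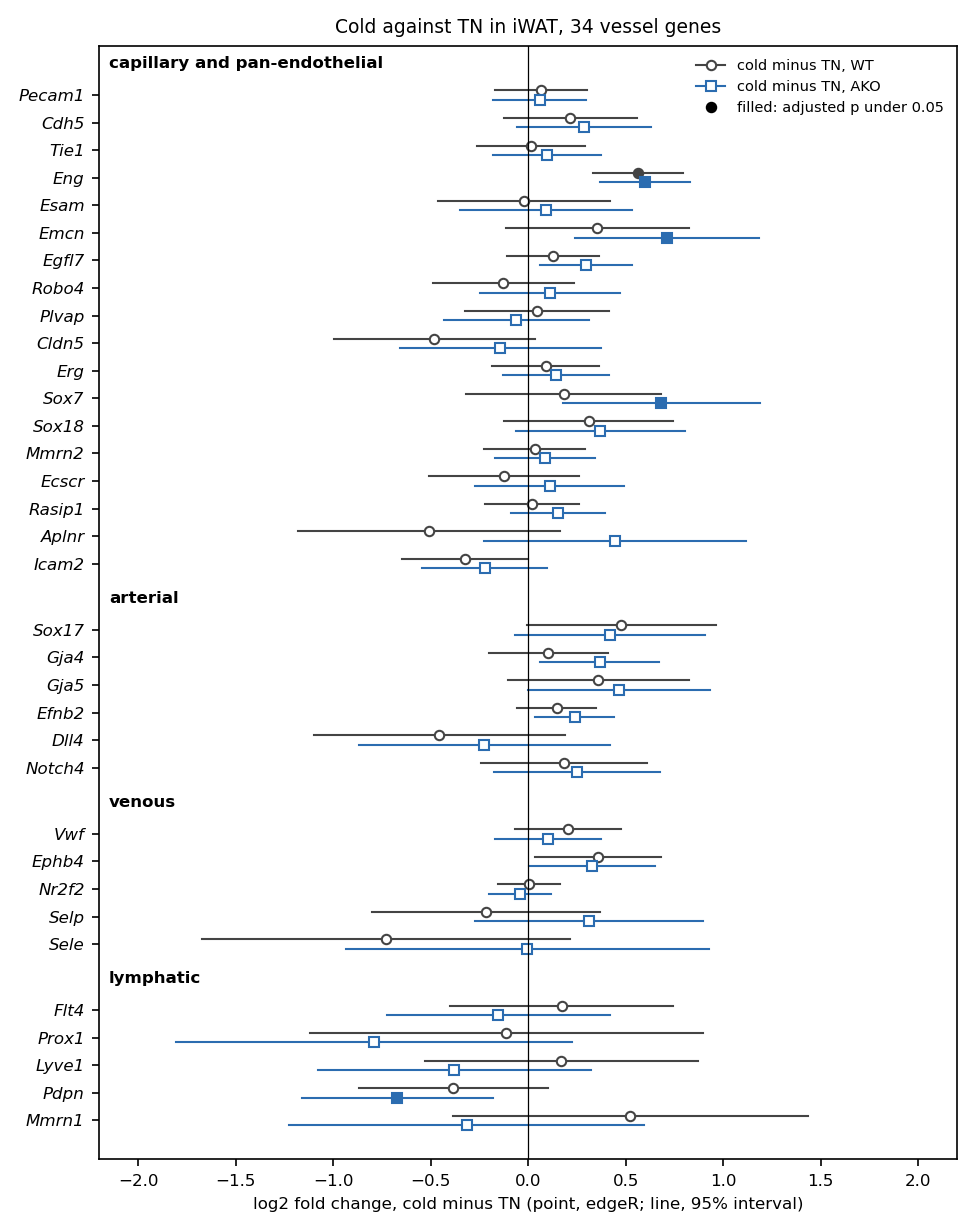
Log2 fold change between cold and TN (x axis) of the 34 genes by class (y axis) in WT (circles) and HIF2α AKO (squares), as edgeR estimate with its 95% interval and filled where the adjusted p was under 0.05. Eng is filled in both genotypes, Emcn, Sox7 and Pdpn in HIF2α AKO, and the intervals of most other genes include 0.

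Eng was 185, 171 and 206 CPM in TN WT and 257, 266 and 307 CPM in cold WT. In HIF2α AKO it was 192, 203 and 198 CPM at TN and 307, 278 and 313 CPM in cold. Each of the 6 cold libraries lay above each of the 6 TN libraries, the nearest values being 257 and 206 CPM. The log2 fold change was 0.56 (SE 0.11, edgeR adjusted p = 0.0048) in WT and 0.60 (SE 0.11, edgeR adjusted p = 0.0029) in HIF2α AKO, and Eng was called in both under every alternative run. When libraries were scaled to 38 other endothelial genes instead of to all genes, its changes were 0.40 and 0.39. The exons of Eng share 61 bases with Fpgs on the opposite strand.

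Emcn was 18.0, 28.4 and 20.5 CPM in TN HIF2α AKO and 36.2, 37.7 and 35.9 CPM in cold HIF2α AKO. The groups did not overlap, and the log2 fold change was 0.71 (SE 0.21, edgeR adjusted p = 0.033). In WT, Emcn was 26.9, 19.3 and 32.0 CPM at TN and 30.8, 27.5 and 41.6 CPM in cold. Those groups overlapped, though only through TN WT replicate 3 at 32.0 CPM, and the value was 0.35 (SE 0.21). The difference between the genotypes was 0.36 (95% interval -0.30 to 1.02), so a different response was not shown. The call in HIF2α AKO was lost without any of 5 libraries of the 2 groups compared, the exception being TN replicate 2. The adjusted p without 1 of these 5 lay between 0.058 and 0.13.

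Sox7 was 8.53, 12.3 and 10.8 CPM in TN HIF2α AKO and 18.3, 17.4 and 15.1 CPM in cold HIF2α AKO, without overlap. Its log2 fold change was 0.68 (SE 0.23, edgeR adjusted p = 0.048). In WT, TN libraries at 12.1, 8.53 and 16.2 CPM overlapped with cold libraries at 10.96, 14.7 and 16.1 CPM, and the value was 0.18 (SE 0.23). The difference between the genotypes was 0.50 (95% interval -0.21 to 1.21). Sox7 was not called with the upper-quartile normalization (adjusted p = 0.055), with scaling to endothelial genes (0.056), or without either TN replicate 1 (0.17) or TN replicate 3 (0.0997) of HIF2α AKO. It was also not called without cold replicate 1, 2 or 3 of HIF2α AKO (0.14, 0.11 and 0.058), cold WT replicate 2 (0.055) or TN WT replicate 1 (0.067). Without the libraries that held muscle transcripts, cold HIF2α AKO replicate 1 and TN HIF2α AKO replicate 2, the value was 0.75 and the adjusted p 0.12.

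**Figure D2:**
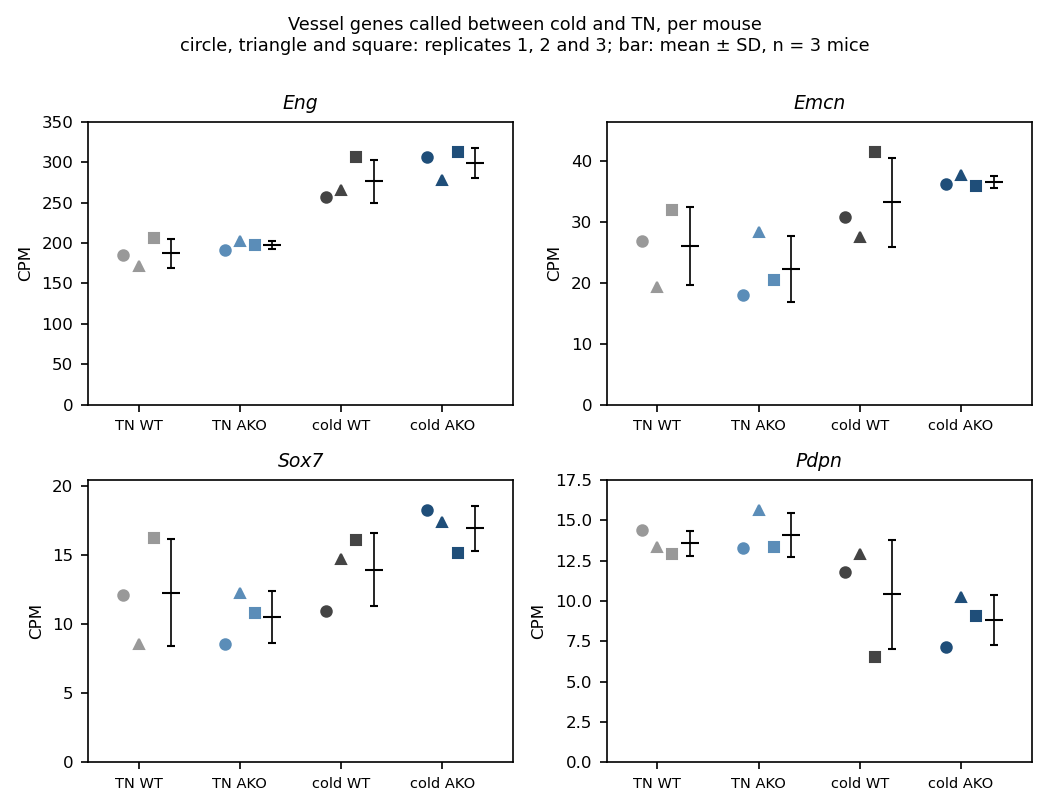
CPM per mouse (y axis) of Eng, Emcn, Sox7 and Pdpn in the 4 groups (x axis), with symbols for replicates 1 to 3 and bars for mean ± SD. The 6 cold values of Eng lie above all TN values, and Emcn and Sox7 overlap between TN and cold in WT but not in HIF2α AKO. In WT, Emcn overlaps only through TN WT replicate 3.

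The other 15 capillary and pan-endothelial genes did not pass the test in either genotype. Including the called genes, 12 of the 18 had a positive estimate in WT and 15 in HIF2α AKO, with medians of 0.04 and 0.13. Under scaling to the other endothelial genes the medians were -0.12 and -0.08, and under the upper-quartile normalization -0.10 and 0.04, so the direction of the class depended on the scale. Pecam1 was at 296 ± 10.2 CPM in TN WT and 309.9 ± 25.6 CPM in cold WT (SD, n = 3). The log2 fold change of Pecam1 was 0.06 in each genotype, with a 95% interval of -0.17 to 0.30 in WT and -0.18 to 0.30 in HIF2α AKO. Cdh5 was 232 ± 46.7 CPM in TN WT and 269.7 ± 32.8 CPM in cold WT (SD, n = 3), a value of 0.22 (95% interval -0.13 to 0.56). In HIF2α AKO, Cdh5 was at 0.29 (interval -0.06 to 0.63) without overlap, and DESeq2 on the 2 groups alone called it (adjusted p = 0.047). Plvap was at 0.05 (interval -0.33 to 0.42) in WT and -0.06 (interval -0.43 to 0.31) in HIF2α AKO.

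Icam2, an adhesion molecule that leukocytes bind, was 29.2, 36.7 and 29.9 CPM in TN WT and 24.7, 26.7 and 25.1 CPM in cold WT. All 3 cold libraries were below the TN libraries, and the log2 fold change of -0.32 (SE 0.15) had an unadjusted p of 0.048 in edgeR, which did not pass the adjustment (adjusted p = 0.13). Cldn5 was 75.3, 53.4 and 88.7 CPM in TN WT and 57.1, 44.1 and 54.6 CPM in cold WT, with overlap and a value of -0.48 (SE 0.23, edgeR adjusted p = 0.15). Under scaling to endothelial genes Cldn5 was called lower in WT, at -0.62 (adjusted p = 0.046), and under the upper-quartile normalization Icam2 was, at -0.46 (adjusted p = 0.0499). Egfl7, a secreted vessel protein and host of the endothelial miRNA miR-126, was at 0.30 (SE 0.11, edgeR adjusted p = 0.060) in HIF2α AKO and 0.13 (SE 0.11) in WT. On the 4 groups, Egfl7 was called in HIF2α AKO by edgeR with RLE normalization (adjusted p = 0.046), DESeq2 (0.017) and limma (0.016). Sox18, an endothelial SOX factor, was at 0.37 (SE 0.20) in HIF2α AKO and 0.31 (SE 0.20) in WT, and was called in HIF2α AKO by limma (adjusted p = 0.037) but not by DESeq2 on the 4 groups.

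Aplnr, the apelin receptor of growing vessels, was the member whose estimates differed most between the genotypes among blood vessel genes. It was 27.6, 30.0 and 43.5 CPM in TN WT and 15.5, 28.2 and 27.2 CPM in cold WT. In HIF2α AKO it was 19.0, 33.8 and 20.9 CPM at TN and 26.9, 45.7 and 27.6 CPM in cold. The groups overlapped in each genotype, with log2 fold changes of -0.51 (SE 0.31) in WT and 0.44 (SE 0.31) in HIF2α AKO. The interaction was 0.95 (SE 0.43), with an unadjusted p of 0.0499 in edgeR and an adjusted p of 1.00. It was 0.73 without TN WT replicate 3. The remaining members of the class were the receptor Tie1, the junction protein Esam, the guidance receptor Robo4, the ETS factor Erg, the matrix protein Mmrn2, the motility regulator Ecscr and the tube formation protein Rasip1. Their log2 fold changes lay between -0.13 for Robo4 and 0.09 for Erg in WT, and between 0.09 for Mmrn2 and Esam and 0.15 for Rasip1 in HIF2α AKO. Rasip1 shares 20.4% of its exon bases with Izumo1 on the same strand, so its counts are uncertain.

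Of the 6 arterial genes, 0 passed the test in either genotype at an adjusted p of 0.05 in edgeR. At an unadjusted p of 0.05 there were 0 in WT and 3 in HIF2α AKO, namely Gja4, Gja5 and Efnb2. The median log2 fold change was 0.17 in WT and 0.31 in HIF2α AKO, and in the latter the cold libraries lay above all TN libraries for 5 of the 6 genes, where 50.5% of all genes did not overlap in either direction. Gja4, a connexin of arterial endothelium, was 11.9, 12.3 and 13.5 CPM at TN and 14.9, 17.3 and 16.6 CPM in cold in HIF2α AKO, a value of 0.37 (SE 0.14, edgeR adjusted p = 0.069). Efnb2, which encodes ephrin-B2, was at 0.24 (SE 0.092, edgeR adjusted p = 0.072) in HIF2α AKO and at 0.15 (SE 0.092) in WT. Gja5 was at 0.47 (SE 0.21, edgeR adjusted p = 0.12) in HIF2α AKO and at 0.36 (SE 0.21) in WT. Sox17, an arterial SOX factor, was at 0.42 (SE 0.22) and 0.48 (SE 0.22), respectively. DESeq2 on the same 4 groups called Gja4 and Efnb2 higher in HIF2α AKO, at adjusted p values of 0.028 and 0.031.

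The Notch genes of the arterial class varied between libraries. Notch4, an endothelial Notch receptor, was 36.4, 31.4 and 56.8 CPM in TN WT and 48.9, 44.8 and 47.8 CPM in cold WT. TN WT replicate 3 was the highest of the 12 libraries for Notch4. Dll4, the Notch ligand of arteries and tip cells, was also highest there at 34.4 CPM, against 20.8 and 23.2 CPM in the other TN WT libraries. Its lowest library was cold WT replicate 3 at 10.4 CPM. The log2 fold change of Dll4 was -0.46 (SE 0.29) in WT and -0.23 (SE 0.29) in HIF2α AKO, the only negative estimates of the class. Without TN WT replicate 3, Notch4 at 0.48, Gja5 at 0.63 and Sox18 at 0.58 were called higher in cold WT, with edgeR adjusted p values of 0.034, 0.035 and 0.030. Without cold WT replicate 1, Sox17 was called at 0.69 (adjusted p = 0.032).

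Among the 5 venous genes, Ephb4 had an unadjusted p under 0.05 in edgeR in both genotypes, and the other 4 had one in neither. It was 55.4, 51.0 and 61.0 CPM in TN WT and 60.5, 64.6 and 89.7 CPM in cold WT, which overlap. In HIF2α AKO it was 55.9, 69.4 and 56.4 CPM at TN and 79.2, 72.4 and 76.8 CPM in cold, which do not. The log2 fold changes were 0.36 (SE 0.15, edgeR adjusted p = 0.097) and 0.33 (SE 0.15, edgeR adjusted p = 0.11). In HIF2α AKO, Ephb4 was called by limma (adjusted p = 0.020), by edgeR and DESeq2 on the 2 groups alone (0.042 and 0.025) and by edgeR without cold WT replicate 3 (0.037). Vwf, the von Willebrand factor stored in endothelial granules, was at 0.20 (95% interval -0.07 to 0.47) in WT and 0.10 (interval -0.17 to 0.38) in HIF2α AKO. Nr2f2 was at 0.00 (95% interval -0.15 to 0.16) and -0.04 (interval -0.20 to 0.12), the narrowest intervals of all members. Selp, the P-selectin of venules, was at -0.22 (SE 0.27) in WT and 0.31 (SE 0.27) in HIF2α AKO. Sele was 3.95, 2.84 and 4.09 CPM in TN WT and 2.77, 2.56 and 1.25 CPM in cold WT, without overlap, and its value of -0.73 (SE 0.43) did not pass the test (edgeR adjusted p = 0.22). The venous median was 0.00 in WT and 0.10 in HIF2α AKO.

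**Figure D3:**
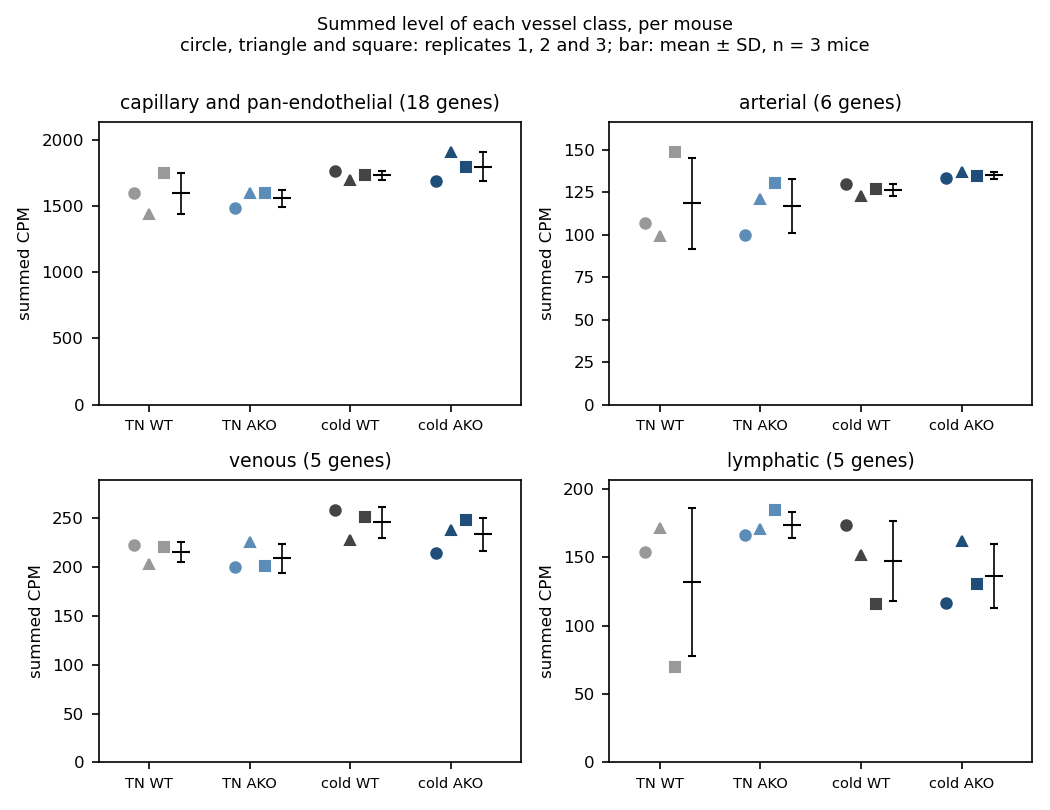
Summed CPM of the genes of each class (y axis) per mouse in the 4 groups (x axis), with symbols for replicates 1 to 3 and bars for mean ± SD. In the lymphatic panel TN WT replicate 3 lies at 70.1 CPM, below the other libraries, while it is the highest arterial value at 149 CPM.

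The summed level of the 18 capillary and pan-endothelial genes was 1599 ± 157 CPM in TN WT, 1562 ± 65.0 in TN HIF2α AKO, 1735 ± 31.1 in cold WT and 1801 ± 111 in cold HIF2α AKO (SD, n = 3 mice each). TN and cold overlapped in WT and not in HIF2α AKO, where the sums reached 1599.73 CPM at TN and began at 1690.1 CPM in cold. The overlap in WT came from TN WT replicate 3 at 1754 CPM. The other TN WT libraries, at 1604 and 1440 CPM, lay below the cold WT libraries, which began at 1703 CPM. Eng is part of this sum, at 192 to 203 CPM in TN HIF2α AKO and 278 to 313 CPM in cold HIF2α AKO. With Eng taken out of the sum, TN and cold overlap in HIF2α AKO, so the separation there depended on this gene. The arterial sum was 118 ± 26.6, 117 ± 15.8, 126 ± 3.55 and 135 ± 1.84 CPM in the same order, again with overlap in WT and none in HIF2α AKO. This WT overlap also came from TN WT replicate 3, at 149 CPM. The other TN WT libraries were at 107 and 99.3 CPM, below the cold WT libraries at 123 to 130 CPM. TN WT replicate 2 stood apart in the other direction, with the lowest capillary and arterial sums of the 12 libraries, 1440 and 99.3 CPM. It was the lowest library for 7 of the 18 capillary and pan-endothelial genes and for 4 of the 6 arterial genes. The venous sum was 216 ± 10.5, 209 ± 14.8, 246 ± 15.8 and 233 ± 17.2 CPM, with no overlap between TN and cold in WT and overlap in HIF2α AKO. These sums were compared by their ranges and not tested. The sums of other cell types moved over the same samples. White adipocyte markers summed to between 4564 and 12451 CPM at TN and between 15057 and 29179 CPM in cold, and fibroblast markers to between 4627 and 6079 CPM at TN and between 2851 and 3887 CPM in cold. Markers of mural cells, which wrap the vessels, summed to between 680 and 919 CPM at TN and between 916 and 1058 CPM in cold. Platelet markers summed to between 70.8 and 109 CPM at TN and between 67.9 and 96.3 CPM in cold, with 0 of 5 called (0 also at an unadjusted p of 0.05 in edgeR). Both detected red cell genes were called higher in cold WT, where they summed to between 295 and 739 CPM against 86.4 to 104 CPM in TN WT. All markers of the adipocyte, fibroblast and mural lists were detected, and the part of these cells in the vessel values was not tested.

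Of the 5 lymphatic genes, 0 passed the test between cold and TN in WT (0 also at an unadjusted p of 0.05 in edgeR, 0 with DESeq2 and limma). In HIF2α AKO all 5 had negative estimates, and 1, Pdpn, was called. It was 13.3, 15.6 and 13.3 CPM in TN HIF2α AKO and 7.17, 10.3 and 9.09 CPM in cold HIF2α AKO, without overlap. It fell by 0.67 on the log2 scale (SE 0.22, edgeR adjusted p = 0.046). In WT it was 14.4, 13.4 and 12.9 CPM at TN and 11.8, 12.9 and 6.56 CPM in cold, with a log2 fold change of -0.38 (SE 0.22, edgeR adjusted p = 0.21). All 6 cold libraries were below all TN libraries, although the nearest values, 12.902 and 12.929 CPM, were almost the same. The difference between the genotypes was -0.29 (95% interval -0.97 to 0.40). The call was lost without any 1 of 10 of the 12 libraries, with adjusted p values between 0.051 and 0.16, and held without cold WT replicate 2 or 3. It was also lost with no filter on low counts (adjusted p = 0.054). Without the libraries that held muscle transcripts the value of Pdpn was -0.46 (adjusted p = 0.26).

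Prox1 was 8.96, 6.19 and 7.85 CPM in TN HIF2α AKO and 4.65, 4.14 and 4.49 CPM in cold HIF2α AKO, also without overlap. Its log2 fold change of -0.79 had an SE of 0.46 in the model of 4 groups (edgeR adjusted p = 0.21). When edgeR was fitted to those 2 groups alone, the value was -0.77 (SE 0.18, adjusted p = 0.021). The spread of Prox1 in the model of 4 groups includes the WT libraries, which were 4.58, 9.73 and 1.88 CPM at TN and 6.00, 5.90 and 3.10 CPM in cold. Lyve1 was at -0.38 (SE 0.32), Flt4 at -0.15 (SE 0.26) and Mmrn1 at -0.32 (SE 0.41) in HIF2α AKO, and all 3 overlapped between cold and TN. In WT the values were 0.17 (SE 0.32) for Lyve1, 0.17 (SE 0.26) for Flt4, 0.52 (SE 0.41) for Mmrn1 and -0.11 (SE 0.46) for Prox1.

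The WT values of Prox1, Lyve1, Mmrn1 and Flt4 moved with TN WT replicate 3. That library was the lowest of the 12 libraries for 4 of the 5 genes, at 1.88 CPM for Prox1, 27.9 CPM for Lyve1, 5.66 CPM for Mmrn1 and 21.7 CPM for Flt4. In the other 5 TN libraries these genes lay between 4.58 and 9.73, 76.6 and 92.6, 15.6 and 24.8, and 39.9 and 46.4 CPM. Pdpn was 12.9 CPM in that library and between 13.3 and 15.6 CPM in the other 5. Macrophage markers summed to 1861 CPM there and to between 3038 and 3278 CPM in the other 5 TN libraries, beside the epithelial transcripts described above. Without TN WT replicate 3, the lymphatic median between cold and TN in WT was -0.19 in place of 0.17, with Lyve1 at -0.19 and Mmrn1 at 0.14, and none of the 5 genes was called. The arterial median was 0.35 in place of 0.17.

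**Figure D4:**
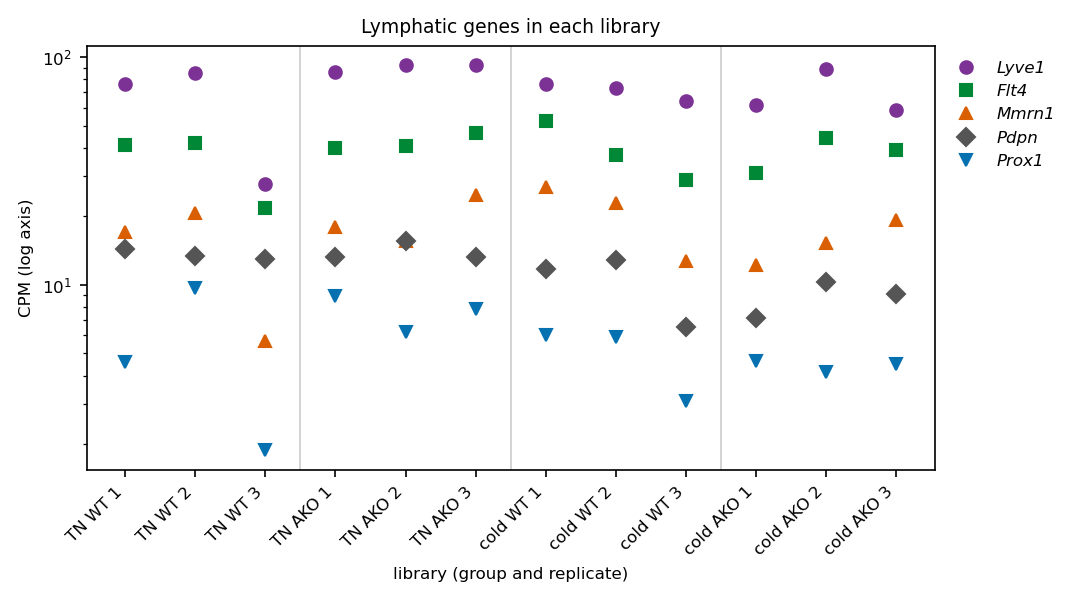
CPM (y axis, log scale) of the 5 lymphatic genes in each of the 12 libraries (x axis), with 1 symbol per gene. TN WT replicate 3 holds the lowest point of Prox1, Lyve1, Mmrn1 and Flt4, and cold WT replicate 3 that of Pdpn.

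Macrophage and lymph node markers changed over the same comparison as the lymphatic genes. The 12 macrophage markers summed to between 3038 and 3226 CPM in TN HIF2α AKO and between 1769.8 and 1995 CPM in cold HIF2α AKO, where 4 of 12 were called lower. In WT they lay between 1861 and 3278 CPM at TN and between 1577 and 3116 CPM in cold, and 0 of 12 were called (0 also at an unadjusted p of 0.05 in edgeR). The 12 lymphocyte and lymph node markers summed to between 1223 and 2041 CPM at TN and between 706 and 1212 CPM in cold, with 2 of 12 called lower in WT and 4 of 12 in HIF2α AKO. Cold WT replicate 3 had the lowest macrophage sum at 1577 CPM. It was the lowest of the 12 libraries for 5 members, Pdpn, Dll4 and Sele among them, and the highest for 5 others. Of 9 fibroblast and progenitor markers, 2 were called lower in cold in WT and 4 in HIF2α AKO. Over all genes, 5.68% were called lower in cold in WT and 11.5% in HIF2α AKO. The part of these cells in the values of Lyve1, Pdpn and the other lymphatic genes was not tested.

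Between the genotypes, 0 of the 34 members passed an adjusted p of 0.05 in edgeR at TN or in cold, and 0 did at an unadjusted p of 0.05. Over all genes 0.00653% were called in cold and 0.00653% at TN, and 2.95% and 2.91% had an unadjusted p under 0.05. The smallest unadjusted p of a member was 0.088 in cold, for Vwf, and 0.14 at TN, for Lyve1. DESeq2 and limma called 0 members as well. The groups did not overlap for 1 member in cold, where 7.53% of all genes did not, and for 2 at TN, where 7.69% did not. The member in cold was Notch4, at 49.2 to 51.0 CPM in HIF2α AKO and 44.8 to 48.9 CPM in WT. At TN these were Vwf, at 102 to 106 CPM in HIF2α AKO and 107 to 122 CPM in WT, and Lyve1, at 86.3 to 92.6 CPM in HIF2α AKO and 27.9 to 85.5 CPM in WT. The libraries of a group serve in more than 1 comparison, so the comparisons are not independent.

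The intervals show what size of difference between genotypes these data could hold. In cold, the 95% interval lay within 0.5 on the log2 scale of 0 for 16 of the 34 members and within 1 for 30. At TN the numbers were 18 and 29. For Pecam1 in cold the difference of HIF2α AKO to WT was -0.04 (95% interval -0.28 to 0.20), for Cdh5 0.08 (interval -0.26 to 0.42) and for Eng 0.11 (interval -0.12 to 0.34). For Prox1 in cold the interval was -1.20 to 0.85, so a change of that size was not detectable. The capillary and pan-endothelial median was 0.08 in cold and -0.06 at TN, and the arterial median 0.11 and 0.01. The venous median was 0.09 in cold and -0.13 at TN. The lymphatic median was -0.17 in cold, and at TN it was 0.43, which became 0.05 without TN WT replicate 3. In the interaction of genotype and temperature 0% of all genes and 0 members were called, and 2.14% of all genes and 1 member, Aplnr, had an unadjusted p under 0.05 in edgeR. All 5 lymphatic genes had negative interaction estimates, with a median of -0.55, or -0.25 without TN WT replicate 3.

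**Figure D5:**
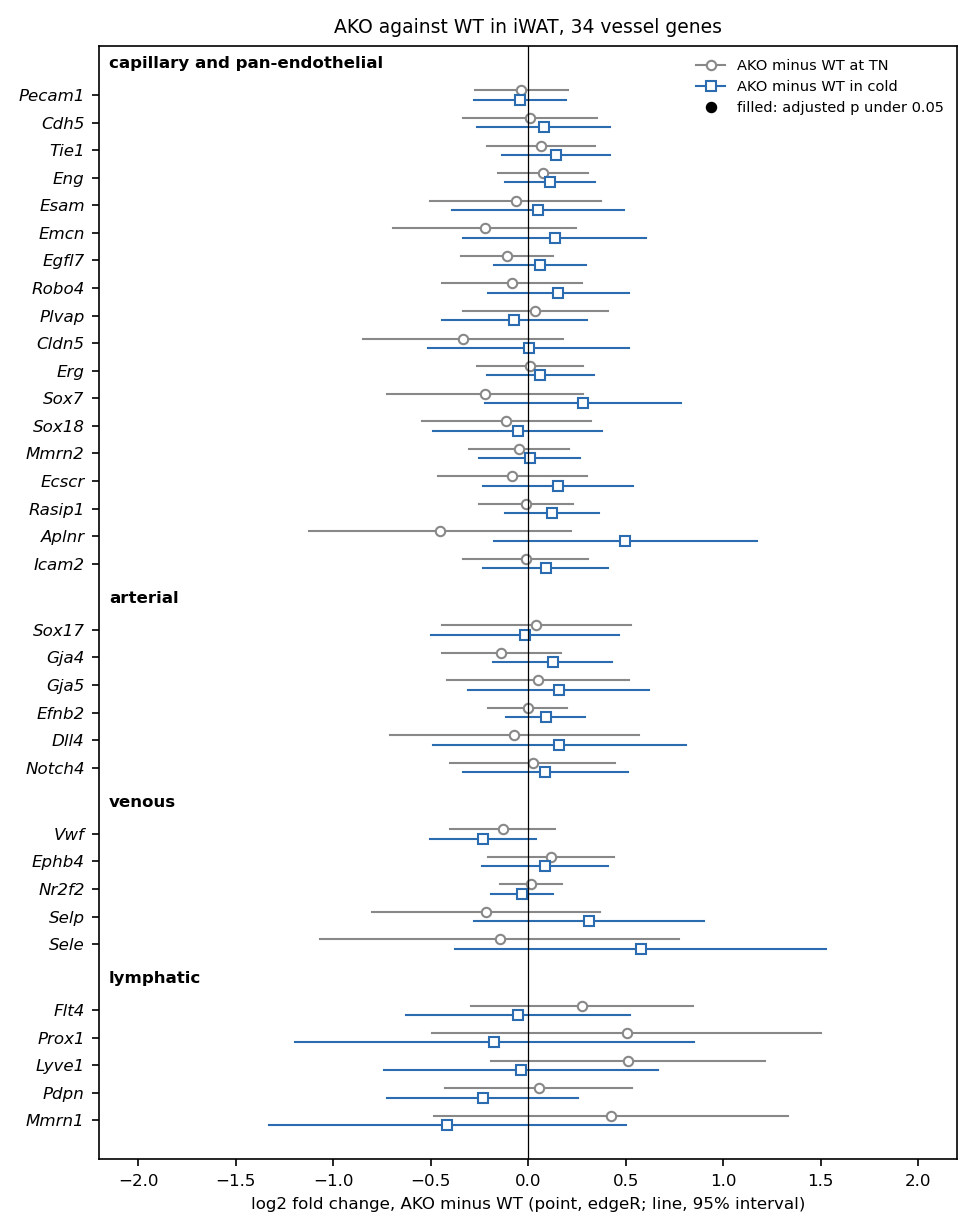
Log2 fold change between HIF2α AKO and WT (x axis) of the 34 genes by class (y axis) at TN (circles) and in cold (squares), as edgeR estimate with its 95% interval. No point is filled, since no gene was called, and the intervals are widest for Prox1, Mmrn1, Sele and Lyve1.

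Other vessel genes were kept in 5 lists beside the members. Of 38 further endothelial genes, 6 were higher and 1 was lower in cold WT, and 6 were higher and 4 lower in cold HIF2α AKO. Among all genes 15.6% were higher and 5.68% lower in WT, and 15.6% and 11.5% in HIF2α AKO, so these counts were near the background. Nos3, the endothelial nitric oxide synthase, was 81.8, 42.2 and 103 CPM in TN WT and 139.7, 126 and 195 CPM in cold WT, at 1.02 on the log2 scale (SE 0.31, edgeR adjusted p = 0.038), and in HIF2α AKO it was at 0.87 (SE 0.31, edgeR adjusted p = 0.054). Gpihbp1, which carries lipoprotein lipase to the capillary lumen, was at 1.01 (SE 0.30, edgeR adjusted p = 0.036) in WT and 0.89 (SE 0.30, edgeR adjusted p = 0.049) in HIF2α AKO. Cyyr1 rose by 0.94 (SE 0.22) in WT and by 0.89 (SE 0.22) in HIF2α AKO, and Tinagl1, a vascular matrix protein, by 0.72 (SE 0.17) in WT and by 0.82 (SE 0.17) in HIF2α AKO. Lower in WT was the ETS factor Fli1 (-0.39, SE 0.13), where HIF2α AKO gave -0.41 (SE 0.13). Lower in HIF2α AKO were the haematopoietic and endothelial factors Lmo2 (-0.75, SE 0.19) and Lyl1 (-0.52, SE 0.17) and Nostrin (-0.49, SE 0.17), which binds the nitric oxide synthase. In WT, Lmo2 was 78.5, 78.2 and 54.6 CPM at TN and 54.9, 56.2 and 36.1 CPM in cold. Lyl1 was 51.4, 61.5 and 43.2 CPM against 39.0, 43.7 and 29.6 CPM there, and Nostrin 8.23, 10.1 and 7.64 CPM against 6.94, 8.29 and 5.63 CPM. All of these WT groups overlapped, those of Lmo2 and Lyl1 only through TN WT replicate 3. An unadjusted interaction p under 0.05 in edgeR was reached by 0 of the 38 genes.

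Among 12 further arterial genes, 1 rose in cold WT and 4 in cold HIF2α AKO, beside 15.6% of all genes in each genotype, and 0 fell. The semaphorin Sema3g was at 0.65 (SE 0.17) in WT. In HIF2α AKO the Notch ligand Jag2 was at 0.63 (SE 0.18), the VEGF co-receptor Nrp1 at 0.61 (SE 0.15) and the netrin receptor Unc5b at 0.50 (SE 0.12). Sema3g in HIF2α AKO was 33.3, 37.4 and 35.0 CPM at TN and 46.6, 47.7 and 41.3 CPM in cold, without overlap. In WT, Nrp1 was 192, 171 and 252 CPM at TN and 257, 250 and 262 CPM in cold. Jag2 was 19.8, 17.8 and 30.9 CPM against 25.2, 29.0 and 29.0 CPM there, and Unc5b 22.82, 21.4 and 22.6 CPM against 24.9, 30.3 and 22.81 CPM. These WT groups overlapped, those of Nrp1 and Jag2 only through TN WT replicate 3. An unadjusted interaction p under 0.05 in edgeR was found for 0 of the 12 genes. Of 6 further venous genes, 1 was called, Nrp2, a co-receptor of venous and lymphatic endothelium, at 0.48 (SE 0.10) in HIF2α AKO. In WT, where its groups overlapped, Nrp2 was 90.3, 92.4 and 78.4 CPM at TN and 95.7, 106 and 86.1 CPM in cold. Of these 6 venous genes, 2 had an unadjusted interaction p under 0.05 in edgeR, 1 with a positive and 1 with a negative estimate. Among all genes 2.14% did, and 0 of the 6 passed the adjustment. Of 8 further lymphatic genes, 0 were called in either genotype in edgeR, and 0 in WT and 1 in HIF2α AKO passed an unadjusted p of 0.05. Their median was -0.08 in WT and -0.49 in HIF2α AKO. The WT median includes TN WT replicate 3, where these genes summed to 62.6 CPM. In the other TN libraries they summed to between 90.2 and 119 CPM, and the median without replicate 3 is not given. Of 6 genes of sprouting vessels, Apln, the ligand of Aplnr, was 3.67, 4.25 and 10.3 CPM in TN WT and 12.8, 16.1 and 13.5 CPM in cold WT. Apln rose by 1.22 on the log2 scale (SE 0.34, edgeR adjusted p = 0.028) in WT and by 2.24 (SE 0.35, edgeR adjusted p = 0.0015) in HIF2α AKO. Esm1, a tip cell proteoglycan, was lower in cold WT at -1.01 (SE 0.29), while in HIF2α AKO it was at -0.14 (SE 0.29). These lists were not used to choose the members, and no difference between lists was tested.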

How the data were processed

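The RNA of iWAT from 12 mice was analysed from gene-level read counts, as deposited by the authors. According to the labels and methods, the authors trimmed reads with Trim Galore 0.4.4, aligned them with STAR 2.6.1d to GRCm38 (mm10), counted them with HTSeq 0.13.5 and tested them with DESeq2 1.30.0. The annotation, strand setting and read length are not given in the sources used here. Each of the 12 tables of single samples was identical to its column in the series table. Tallies of reads outside genes, 21.9 to 27.0% of the reads listed, were left out. Library totals over genes ranged from 22368316 to 35204631. With 3 mice per group, p-values of the main fit set group differences against a spread estimated over all 12 libraries.

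Counts were analysed in R 4.3.3 with edgeR 4.0.16. After filterByExpr (minimum count 10, minimum total 15) 15306 genes were kept, and TMM factors lay between 0.829 and 1.20. A quasi-likelihood model of the 4 groups gave 5 contrasts, cold against TN within each genotype, HIF2α AKO against WT at each temperature, and their interaction, with Benjamini-Hochberg adjustment over all tested genes and a limit of 0.05. The common biological coefficient of variation was 20.2%, and the median over the members 16.6%. Alternatives were other scalings, no filter, DESeq2 1.42.0, limma 3.58.1 voom, fits of 2 groups, a replicate block, other limits and each library left out. The model was tested on simulated data.

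The members and lists were chosen with earlier results of these data known. All 34 members are named. From each of the other vessel lists, at most the 3 largest changes per genotype and direction are named, among genes that were called between cold and TN, did not overlap and averaged 50 counts or more. 9 members share exon bases with another gene of the table, by up to 20.4% of their exons. Positions come from GENCODE for GRCm38.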

Additional observations from a re-analysis of the deposited data

How the results depend on the processing

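Eng kept its direction and its call in both genotypes under every alternative, with log2 fold changes of 0.40 to 0.64 (WT) and 0.39 to 0.65 (HIF2α AKO). Of 3672 values of members under an alternative, 3612 stayed on their side of the threshold, 29 lost a call, 31 gained one and 0 called values turned direction. Most of these values belong to genes and contrasts not called in the main fit, so the total says little about the calls. The 29 lost calls were all of Emcn, Sox7 and Pdpn in HIF2α AKO. Values that were not called could change sign, as Lyve1 did in WT, from 0.17 to -0.19 without TN WT replicate 3. In cold against TN within WT, 1 member was higher, and 1 to 4 were with a library left out, 2 at an unadjusted p of 0.05 and 7 with the study's limits (p under 0.15, log2 fold change beyond 0.2 in size). There 0 members were lower, and 1 was with upper-quartile normalization, 1 with scaling to endothelial genes, 1 at the unadjusted limit and 6 with the study's limits. Within HIF2α AKO, 3 were higher, and 1 to 4 were with a library left out, 6 with DESeq2 and 7 with limma voom on 4 groups, 7 with edgeR and 10 with DESeq2 on the 2 groups, 8 at the unadjusted limit and 11 with the study's limits. There 1 was lower, and 0 to 1 were with a library left out, 0 with no filter, 0 without the libraries that held muscle transcripts (chosen after seeing the data), 2 with either fit of 2 groups and 2 with the study's limits. Between the genotypes 0 were called, and with the study's limits 1 was higher and 1 lower in cold and 1 higher at TN. In the interaction 0 were higher, 1 at the unadjusted limit and 2 with the study's limits. The cause of these shifts was not tested.

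Same-numbered replicates did not regularly deviate together, with a correlation above 0.1 in 5 of 18 pairs (range -0.43 to 0.39). The numbers were therefore not taken to pair the samples, although such correlations cannot exclude a shared batch or litter. With the replicate block, 1 member was higher and 0 lower in cold in WT, and 2 were higher (Eng and Emcn) and 0 lower in HIF2α AKO, with edgeR adjusted p values of 0.061 for Sox7 and 0.0503 for Pdpn, and 0 were called between genotypes. The lowest count of a member in a library was 31, for Sele, followed by 55 for Prox1.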
